A study of Mus musculus with 16 samples.

Results

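Acute phase proteins are secreted plasma proteins whose levels change with inflammation and tissue injury. The 10 genes described here encode serum amyloid A proteins (Saa1, Saa2, Saa3), the orosomucoids or alpha-1-acid glycoproteins (Orm1, Orm2, Orm3), haptoglobin (Hp), hemopexin (Hpx), lipocalin 2 (Lcn2) and C-reactive protein (Crp). They were taken by symbol from a table of read counts, and all 10 were found among its 24011 genes. Hepatocytes make most of the circulating protein, and their response is driven by interleukin 6, which acts through STAT3, and by interleukin 1, which acts through NF-kB, with transcription factors of the C/EBP family at many of the promoters. In mice the serum amyloid A proteins respond strongly and C-reactive protein only weakly. Some of the genes are also expressed outside the liver, in fat, macrophages or neutrophils.

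The study asked how estrogen regulates genes in different tissues. Wild-type female C57BL/6 mice had their ovaries removed at 6 to 7 weeks of age, so that little estrogen of their own remained, and tissue was taken 1 week later. Whole aortas and pieces of liver were then held in DMEM culture medium for 4 h with 10 nM 17β-estradiol (E2, the active endogenous estrogen) or with the ethanol vehicle. This gave 4 groups of 4 libraries each: liver with E2, liver with vehicle, aorta with E2 and aorta with vehicle. Every group went through surgery and culture, and no uncultured tissue or inflamed animal was part of the set, so levels after culture could not be set against levels in the animal. Per the labels, 8 samples were made with an amplifying kit (Ovation) from 50 ng of RNA and run on 2 kinds of sequencer, and the other 8 by poly-A selection (TruSeq) from 600 ng of RNA of a single aorta or liver fragment. The series text speaks only of a pair of replicates per condition, each with tissue of 4 mice. The columns of the table carry the suffixes n1, n2, o1 and o2, which no label explains, and whether n and o stand for the 2 kits is not stated. Values are therefore given by letter, while most tests take both letters in. No label says that all 4 libraries of a group come from separate cultures, so p-values measure the spread between these libraries, which may in part be technical.

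Total gene counts per library lay between 3896733 and 11796977 for E2-treated liver and between 5210693 and 13078032 for vehicle-treated liver. E2-treated aorta gave 6471319 to 16905441 counts and vehicle-treated aorta 6042073 to 19823982. The ribosomal RNA precursor Rn45s made up 2.94% to 5.52% of these counts in the n libraries of liver, 25.7% to 34.5% in the o libraries of liver and 3.38% to 6.20% in aorta. The tissue labels held against their markers. The summed level of 12 hepatocyte markers was 58910 to 146200 counts per 1000000 counts (CPM) in liver and 151 to 568 CPM in aorta, and that of 8 smooth muscle markers was 157 to 418 CPM in liver and 9232 to 28100 CPM in aorta. CPM here are counts scaled to library sizes after TMM normalization.

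The mouse genes fall into a few small clusters. Gene intervals are those of RefSeq on build GRCm38, and strands and transcripts those of GENCODE. Saa3 (chr7:46711998-46719615, minus strand), Saa1 (chr7:46740497-46743181, minus strand) and Saa2 (chr7:46751833-46754313, plus strand) lie near one another in this order, and Saa1 and Saa2 point away from each other. Orm1 (chr4:63344556-63348163), Orm3 (chr4:63356069-63359506) and Orm2 (chr4:63362449-63365877) follow one another on the plus strand of chromosome 4. Hpx (chr7:105591611-105600116), Hp (chr8:109575128-109579172), Lcn2 (chr2:32384637-32387739) and Crp (chr1:172698056-172699966) stand alone. The reads had been aligned to an older build, mm9, so these positions come from the annotation and not from the deposited counts. The coding sequences of Saa1 and Saa2 are 95.1% identical, those of Orm1 and Orm2 89.9% and those of Orm2 and Orm3 88.3%. Stretches of 36 bases shared with another gene made up 24.6% of the Saa1 transcript, 17.0% of Saa2, 25.7% of Orm1 and 30.8% of Orm2, against 4.81% of Saa3, 7.05% of Orm3 and 0 in Hp, Hpx and Lcn2. The sources used here do not say how the alignment divided such reads, so the split of counts within the Saa1 and Saa2 pair, and among the Orm genes, is uncertain. RefSeq also lists Saa1 and Saa2 as synonyms of each other.

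RefSeq's promoter table for build GRCm38.p6 held 8 of the 10 genes, and not Orm1 and Hp. The 250 bases upstream of the start site are printed for 6 genes: the near-identical Saa1 and Saa2, Orm2 and Orm3, whose E2 values differed most between n and o libraries of liver, Hpx, the most abundant in the n libraries of liver, and Crp, the one gene lower in n than in o libraries of liver. The promoter table places the start sites of Saa1 and Orm3 inside the gene intervals given above. Most of the Saa1 stretch and part of the Orm3 stretch thus lie within those intervals, while the other 4 stretches end where the gene interval begins. Each runs 5′ to 3′ on the gene's own strand, and capitals mark the letters TTGCNNAA, a C/EBP-type motif, on either strand.

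Saa1 (chr7:46742981-46743230, minus strand): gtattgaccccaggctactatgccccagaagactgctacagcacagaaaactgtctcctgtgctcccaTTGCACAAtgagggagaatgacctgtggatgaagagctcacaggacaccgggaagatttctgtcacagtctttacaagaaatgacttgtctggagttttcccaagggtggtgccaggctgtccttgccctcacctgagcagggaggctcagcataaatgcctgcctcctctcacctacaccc
Saa2 (chr7:46751583-46751832, plus strand): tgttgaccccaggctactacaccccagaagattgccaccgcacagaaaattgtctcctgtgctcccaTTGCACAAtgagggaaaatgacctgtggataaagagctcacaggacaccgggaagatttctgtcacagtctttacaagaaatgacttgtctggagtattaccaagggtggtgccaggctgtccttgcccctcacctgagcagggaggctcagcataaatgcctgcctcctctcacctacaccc
Orm2 (chr4:63362199-63362448, plus strand): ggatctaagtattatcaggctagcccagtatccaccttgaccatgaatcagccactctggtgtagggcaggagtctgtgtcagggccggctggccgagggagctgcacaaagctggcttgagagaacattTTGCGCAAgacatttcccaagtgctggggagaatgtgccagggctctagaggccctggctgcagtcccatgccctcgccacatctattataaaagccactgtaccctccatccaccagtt
Orm3 (chr4:63355908-63356157, plus strand): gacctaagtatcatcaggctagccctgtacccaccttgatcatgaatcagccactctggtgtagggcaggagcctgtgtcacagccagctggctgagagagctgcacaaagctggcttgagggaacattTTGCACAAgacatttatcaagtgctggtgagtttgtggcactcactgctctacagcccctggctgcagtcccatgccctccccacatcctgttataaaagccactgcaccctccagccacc
Hpx (chr7:105600117-105600366, minus strand): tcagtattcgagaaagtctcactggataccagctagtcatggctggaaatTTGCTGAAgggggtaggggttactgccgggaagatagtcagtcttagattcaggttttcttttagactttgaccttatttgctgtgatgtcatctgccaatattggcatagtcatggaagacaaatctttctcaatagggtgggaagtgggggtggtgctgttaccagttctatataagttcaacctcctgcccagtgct
Crp (chr1:172697806-172698055, plus strand): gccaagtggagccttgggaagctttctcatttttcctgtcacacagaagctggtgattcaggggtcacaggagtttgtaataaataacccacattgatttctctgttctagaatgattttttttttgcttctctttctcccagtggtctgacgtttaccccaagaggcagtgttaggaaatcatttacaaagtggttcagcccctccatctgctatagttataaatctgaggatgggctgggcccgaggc

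The C/EBP letters were present in 7 of the 8 promoters, in a window of 300 bases that also takes in the 50 bases after the start, against 10.8% of 32851 mouse promoters of the same length. Counted from the RefSeq start site, they began at −182 in Saa1, −183 in Saa2, −99 in Saa3, −120 in Orm2, −121 in Orm3, −200 in Hpx and −216 in Lcn2. Saa1, Saa2 and Orm3 held the same letters, TTGCACAA, where Orm2 held TTGCGCAA. The Crp window held no match. A STAT motif (TTCNNNGAA, in 8.3% of all promoters), an NF-kB motif (GGANTTTCC, 1.25%) and the full palindromic estrogen response element (0.07%) were searched on both strands and had no match in the 8 windows. These are matches of letters only and were not tested as binding sites.

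All 10 genes were higher in liver than in aorta after culture with vehicle, when both an adjusted p under 0.05 and a more than 2-fold difference were asked for (edgeR's quasi-likelihood test, Benjamini-Hochberg adjusted over 12607 genes). Of all genes tested, 23.4% were called higher in liver by the same rule. The median log2 fold change of the 10 was 5.46, against −0.05 over all genes. The largest difference was that of Hpx and the smallest those of Saa3 and Lcn2, so that the genes spread over a wide range of liver preference. Leaving out 1 library moved 5 of the fold changes by more than 1.5 times, without loss of a call. Saa1 had a log2 fold change of 7.01 without liver vehicle n2, Saa2 7.95 without aorta vehicle n2, and Crp 9.37 without liver vehicle o1 and 9.35 without aorta vehicle o1. Orm3 had 4.37 without liver vehicle o2, 2.92 without liver vehicle n1, 4.49 without aorta vehicle o2 and 2.85 without aorta vehicle n1. Lcn2 had 2.14 without liver vehicle o2, 2.24 without aorta vehicle o2 and 3.54 without aorta vehicle n2. In bulk tissue, fewer cells of a type and less RNA per cell cannot be told apart.

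**Figure D1:**
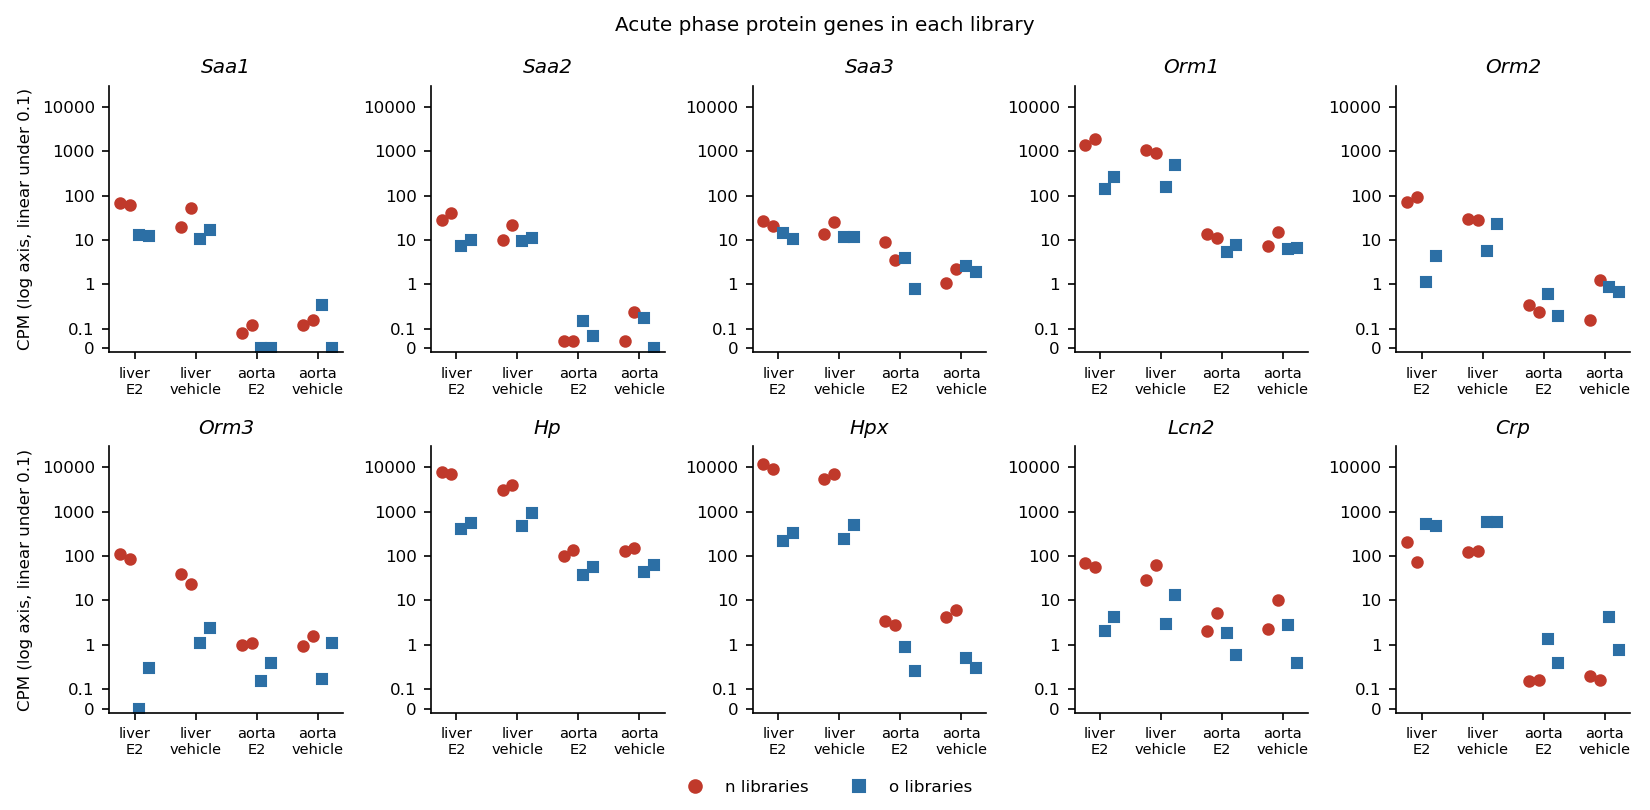
Level of each gene in every library, in CPM on a log axis that is linear under 0.1. Each panel is a gene, with liver E2, liver vehicle, aorta E2 and aorta vehicle from left to right, red circles for n1 and n2 and blue squares for o1 and o2. Liver lies above aorta for most genes, n lies above o in liver without overlap for 7 genes, as for 35.8% of all genes tested, and below it for Crp, as for 35.2%, and Hp is the most abundant in aorta.

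Hpx encodes the plasma protein that binds free heme. It stood at 12230 and 9100 CPM in liver with E2 in the n libraries and at 224 and 331 CPM in the o libraries, against 5447 and 7131 CPM (n) and 246 and 503 CPM (o) in liver with vehicle. In aorta it had 3.39 and 2.77 CPM (n) and 0.908 and 0.257 CPM (o) with E2, against 4.18 and 6.19 CPM (n) and 0.511 and 0.291 CPM (o) with vehicle. Liver and aorta did not overlap, and each tissue split cleanly by letter. The log2 fold change, liver over aorta with vehicle, was 10.20 ± 0.51 (SE, adjusted p = 4.68e-08 by edgeR's quasi-likelihood test, Benjamini-Hochberg adjusted).

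Hp encodes haptoglobin, which captures hemoglobin released from red cells and is also made by fat cells. It had 7810 and 7209 CPM (n) and 417 and 558 CPM (o) in liver with E2, against 3138 and 4024 CPM (n) and 470.5 and 938 CPM (o) in liver with vehicle. In aorta it had 98.9 and 134 CPM (n) and 36.5 and 55.8 CPM (o) with E2, against 129.5 and 149 CPM (n) and 44.8 and 62.5 CPM (o) with vehicle. Hp was the highest of the 10 genes in every aorta library, and it made up 71.5% to 88.8% of the counts of all 10 genes there. Its log2 fold change, liver over aorta, was 4.20 ± 0.38, or 18.4-fold (edgeR's quasi-likelihood test, adjusted p = 2.71e-06).

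The acute phase serum amyloid A proteins ride on high-density lipoprotein. Saa1 had 67.6 and 63.2 CPM (n) and 13.0 and 12.2 CPM (o) in liver with E2, against 19.9 and 51.6 CPM (n) and 10.7 and 16.8 CPM (o) in liver with vehicle. Saa2 had 27.7 and 40.6 CPM (n) and 7.49 and 9.81 CPM (o) in liver with E2, against 10.1 and 21.4 CPM (n) and 9.34 and 10.97 CPM (o) in liver with vehicle. In aorta both were close to absent, with 0 to 3 counts per library. Over the 4 libraries Saa1 summed to 5 counts in aorta with E2 and 7 with vehicle, and Saa2 to 4 counts with E2 and 5 with vehicle. Taken as pooled counts per gene count with vehicle, Saa1 was 154-fold higher in liver than in aorta, with a 95% exact interval of 74.4 to 385, and Saa2 was 112.5-fold higher, with an interval of 47.8 to 349. These intervals cover counting error only. By mean CPM with vehicle the ratio of liver over aorta was 259 in the n and 80.6 in the o libraries for Saa1, and 115 in the n and 119 in the o libraries for Saa2.

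Saa3, the form of the family known in mice from macrophages and fat tissue, was spread differently. It had 26.8 and 20.96 CPM (n) and 14.7 and 10.4 CPM (o) in liver with E2, against 13.7 and 25.5 CPM (n) and 12.0 and 11.8 CPM (o) in liver with vehicle. In aorta it had 9.05 and 3.56 CPM (n) and 3.93 and 0.770 CPM (o) with E2, against 1.08 and 2.27 CPM (n) and 2.55 and 1.89 CPM (o) with vehicle. Its log2 fold change, liver over aorta with vehicle, was 3.04 ± 0.48, or 8.23-fold (edgeR's quasi-likelihood test, adjusted p = 0.000232), compared with 7.71 ± 0.74 for Saa1 and 7.19 ± 0.76 for Saa2, the fitted values of which rest on the few aortic counts above. Saa3 was the one member of its family with readable counts in aorta, from 12 to 235 per library.

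The orosomucoids are small lipocalins that carry lipophilic drugs and dampen inflammation. Orm1, the most abundant, had 1416 and 1925 CPM (n) and 142 and 272 CPM (o) in liver with E2, against 1097 and 931 CPM (n) and 160 and 494 CPM (o) in liver with vehicle. In aorta it had 14.1 and 11.4 CPM (n) and 5.45 and 7.63 CPM (o) with E2, against 7.41 and 15.4 CPM (n) and 6.30 and 6.65 CPM (o) with vehicle. Liver stood above aorta in every library, by a log2 fold change of 6.03 ± 0.47 with vehicle (edgeR's quasi-likelihood test, adjusted p = 7.47e-07).

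Orm2 had 72.3 and 94.7 CPM (n) and 1.15 and 4.45 CPM (o) in liver with E2, against 29.9 and 28.8 CPM (n) and 5.60 and 23.0 CPM (o) in liver with vehicle. Orm3 had 112 and 86.2 CPM (n) and 0 and 0.303 CPM (o) in liver with E2, against 39.0 and 23.1 CPM (n) and 1.07 and 2.34 CPM (o) in liver with vehicle. In the n libraries of liver Orm2 and Orm3 were thus near each other, while in the o libraries Orm3 was close to absent, with 0 to 23 counts. In aorta Orm2 had 0.193 to 0.605 CPM with E2 and 0.159 to 1.25 CPM with vehicle, and Orm3 had 0.151 to 1.07 CPM with E2 and 0.170 to 1.57 CPM with vehicle. The log2 fold changes, liver over aorta with vehicle, were 4.89 ± 0.68 for Orm2 and 3.52 ± 0.73 for Orm3. In the o libraries alone that of Orm3 was 1.47 with an adjusted p of 0.289 (edgeR's quasi-likelihood test, Benjamini-Hochberg adjusted), and its liver and aorta values overlapped there.

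Lcn2 encodes a siderophore-binding protein that withholds iron from bacteria and is stored in neutrophil granules. It had 70.9 and 56.1 CPM (n) and 2.02 and 4.15 CPM (o) in liver with E2, against 29.3 and 63.4 CPM (n) and 2.94 and 13.1 CPM (o) in liver with vehicle. In aorta it had 2.00 and 5.25 CPM (n) and 1.81 and 0.577 CPM (o) with E2, against 2.27 and 10.3 CPM (n) and 2.72 and 0.388 CPM (o) with vehicle. Taken over both letters the tissues overlapped, as the highest n library of aorta lay above the lowest o libraries of liver, and within n and within o they did not overlap as long as E2 and vehicle were kept apart. The log2 fold change, liver over aorta with vehicle, was 2.85 ± 0.74, the smallest of the 10 (edgeR's quasi-likelihood test, adjusted p = 0.00683).

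Among the vehicle libraries Lcn2 was highest in n2 of each tissue, and so were the neutrophil markers. The summed level of the 11 neutrophil markers in the table was 181 CPM in liver vehicle n2 against 11.3 to 64.6 CPM in the other liver vehicle libraries, and 108 CPM in aorta vehicle n2 against 3.75 to 16.3 CPM in the others. With E2 the sums were 25.3 to 63.6 CPM in liver and 4.68 to 25.3 CPM in aorta, and none of the 11 was at 0 in a whole group. In liver with E2, n2 had a higher sum than n1 (63.6 against 49.0 CPM) but lower Lcn2. In the o libraries of liver, o1 had the higher sum (37.6 against 11.3 CPM with vehicle, 34.9 against 25.3 CPM with E2) and lower Lcn2. In aorta with vehicle, o1 had the lower sum (3.75 against 9.71 CPM) and higher Lcn2. In aorta with E2 both had the same order within each letter. The part of neutrophils in the Lcn2 values was not tested.

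Crp encodes a pentraxin that binds phosphocholine on microbes and dying cells. It had 206 and 75.0 CPM (n) and 529.9 and 481 CPM (o) in liver with E2, against 123 and 130.2 CPM (n) and 597.5 and 585 CPM (o) in liver with vehicle. In aorta it had 0.154 and 0.158 CPM (n) and 1.36 and 0.385 CPM (o) with E2, against 0.199 and 0.157 CPM (n) and 4.26 and 0.777 CPM (o) with vehicle. It was the one gene of the 10 with every o library above every n library, in liver and in aorta alike. The log2 fold change, liver over aorta with vehicle, was 8.74 ± 0.53 (edgeR's quasi-likelihood test, adjusted p = 1.13e-07).

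The order of levels, as CPM per kilobase of transcript with vehicle, depended on tissue and letter. In the n libraries of liver Hpx led with a mean of 4196 CPM per kb, ahead of Hp with 2662 and Orm1 with 1308, and these 3 did not overlap with their neighbours in the order. Crp followed with 74.7 CPM per kb, and from Crp down to Saa2, with 24.2, each gene overlapped with the next. In the o libraries of liver the order was Hp with 523 CPM per kb, Orm1 with 422, Crp with 349 and Hpx with 250, in which Hp and Orm1, and Orm1 and Crp, overlapped. Orm3, in the 7th place in the n libraries, was last there with 2.20 CPM per kb. In aorta Hp led with 104 CPM per kb in the n and 39.9 in the o libraries, followed by Orm1 with 14.7 and 8.35, and Hpx had only 3.46 and 0.268. Together the 10 genes held 0.982% to 1.56% of gene counts in the n libraries of liver, 0.0959% to 0.196% in the o libraries of liver and 0.00519% to 0.0293% in aorta.

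The genes of the wider response were set beside them. Of 22 other positive acute phase genes, 16 were called higher and 3 lower in liver than in aorta with vehicle, among them Serpina3m (log2 fold change 10.37 ± 0.49), Apcs, which encodes serum amyloid P (10.26 ± 0.50), and Saa4, the constitutive serum amyloid A (9.90 ± 0.53), by edgeR's quasi-likelihood test (adjusted p from 4.68e-08 to 5.17e-08). All 11 negative acute phase genes were called higher in liver. Of the 8 tested cytokine ligands 4 were called lower, 1 higher and 3 neither, where 24.1% of all genes were called lower and 23.4% higher in liver. Il6 stood at 1.69 to 13.5 CPM in liver and 58.8 to 1076 CPM in aorta, a log2 fold change of −5.96 ± 0.83 with vehicle, and Lif, a related cytokine, had −4.51 ± 0.60. Of the 17 receptors and signal transducers 4 were called higher and 6 lower, with Lifr, a receptor subunit, at 3.81 ± 0.35 and Osmr, the oncostatin M receptor, at −3.18 ± 0.51. Of the 16 transcription factors and feedback inhibitors 4 were called higher and 3 lower, led by the hepatocyte factor Hnf4a (10.53 ± 0.57). Of the 11 receptors and scavengers of the encoded proteins 3 were called higher and 4 lower, with Hmox1, the heme-degrading enzyme, at −3.64 ± 0.53 and Scarb1, a lipoprotein receptor, at 2.25 ± 0.32.

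The genes were also set against Alb, the albumin transcript, as a measure of hepatocyte RNA in each library. Alb itself had 81200 and 65080 CPM in the n and 48020 and 74750 CPM in the o libraries of liver with vehicle, against 32.6 and 41.6 CPM (n) and 310 and 56.6 CPM (o) in aorta with vehicle. Per 1000 Alb reads with vehicle, Hp had 9.80 to 61.8 reads in liver against 145 to 3978 in aorta, and Orm1 had 3.33 to 14.3 in liver against 20.3 to 369 in aorta. Lcn2 had 0.0611 to 0.974 in liver against 6.86 to 247 in aorta, and Saa3 had 0.158 to 0.392 in liver against 8.24 to 54.6 in aorta. For these 4 genes and for Orm2 and Orm3 every aorta library lay above every liver library. The same held for 97.6% of the 11356 genes tested that had a count in each vehicle library, so the count is not a result about these genes. The ratio in aorta was higher by 100.2-fold for Orm3, which had only 1 count in aorta o1 and 4 in liver o1. It was higher by 129-fold for Lcn2, 117.5-fold for Saa3, 52.7-fold for Hp, 30.2-fold for Orm2 and 14.7-fold for Orm1. With all 4 libraries exchanged freely, the exact two-sided permutation test gave p = 0.0286 for each, the smallest it can give, and 0.0381 after Benjamini-Hochberg adjustment over the 8 genes tested. With libraries exchanged only within a letter the exact permutation test gave p = 0.0556 for each, again the smallest it can give, and 0.0635 after the same adjustment, so that none of the 6 passed the threshold. Any gene without overlap gets these same p-values, and 97.6% of genes were without overlap. The p-values are thus not a result about these 6 genes either.

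**Figure D2:**
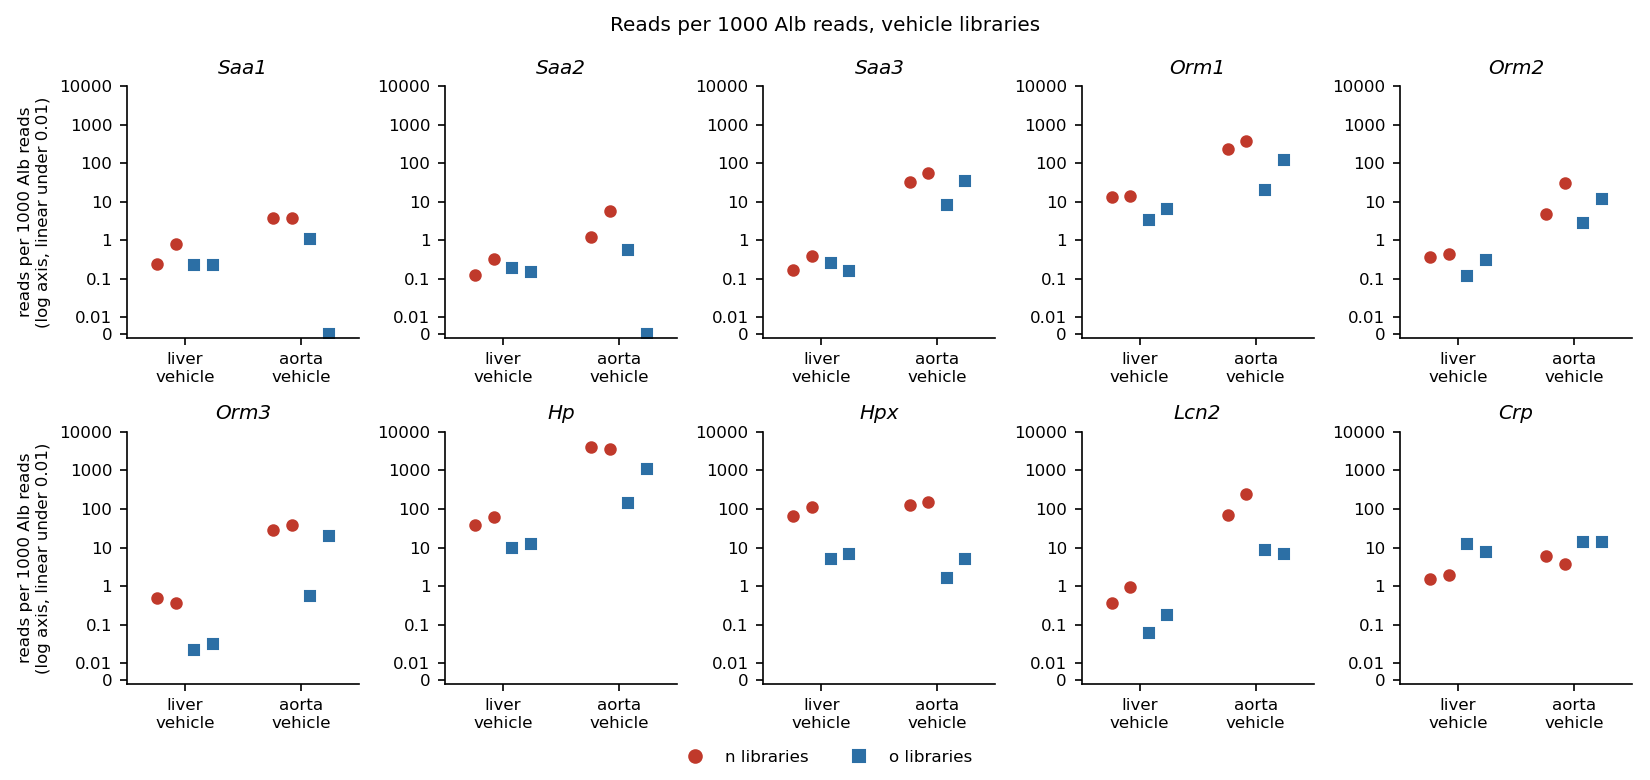
Reads of each gene per 1000 Alb reads in the vehicle libraries, on a log axis that is linear under 0.01, with liver left of aorta, red circles for n and blue squares for o libraries. Aorta lies above liver without overlap for Saa3, Orm1, Orm2, Orm3, Hp and Lcn2, as for most genes. For Hpx and Crp the tissues overlap over all 4 libraries, while for Crp aorta lies above liver within each letter, as for most genes.

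Hpx and Crp were the 2 tested genes of the 10 whose ratios in aorta and liver overlapped over all 4 libraries. Hpx had 5.12 to 109.6 reads per 1000 Alb reads in liver and 1.65 to 149 in aorta, a ratio in aorta of 0.894 times that in liver (exact permutation p = 0.943, and 0.889 within letters). Aorta lay above liver for Hpx in the n libraries and overlapped with it in the o libraries. Crp had 1.52 to 12.4 in liver and 3.77 to 13.7 in aorta, 1.96-fold higher in aorta (exact permutation p = 0.314). Within each letter every Crp ratio in aorta lay above those in liver. In the n libraries they were 1.52 and 2.00 in liver against 6.12 and 3.77 in aorta, where Crp had only 5 and 2 counts. In the o libraries they were 12.4 and 7.82 in liver against 13.7 in each aorta library. Since 97.6% of the genes tested lay above liver over all 4 libraries, separation within a letter is not a result about Hpx or Crp. For Crp the exact permutation test within letters gave p = 0.0556. None of these p-values shows that the ratios are equal. Saa1 and Saa2 had an aorta library with no count and were not tested. Without aorta vehicle o1, the library with the most Alb, the ratio in aorta was 268-fold higher for Orm3, 198-fold for Lcn2, 107.5-fold for Hp and 26.6-fold for Orm1. With single libraries left out it ran from 59.9 to 268 for Orm3, from 65.2 to 215 for Lcn2, from 35.6 to 107.5 for Hp, from 19.7 to 43.8 for Orm2, from 10.1 to 26.6 for Orm1 and from 92.4 to 174 for Saa3. With the sum of the other 11 hepatocyte markers in place of Alb, Saa3 remained higher in aorta without overlap, by 12.2-fold (exact permutation p = 0.0286), whereas the tissues overlapped for Lcn2 (13.4-fold, p = 0.0571), Orm3 (10.4-fold, p = 0.0857), Hp (5.49-fold, p = 0.0571), Orm2 (3.15-fold, p = 0.114) and Orm1 (1.53-fold, p = 0.457). These p-values are unadjusted and let libraries exchange across letters, and that of Saa3 is the smallest possible. How many of all genes were without overlap under this sum was not counted, so the separation is not a result about Saa3. In aorta that sum was mostly Pck1 in the n libraries, at 63.9% to 74.1% with vehicle, and mostly Cyp2e1 in the o libraries, at 67.2% and 74.5%, and fat tissue also expresses both genes. The summed level of 12 adipocyte markers was 389 to 738 CPM in liver and 3472 to 4676 CPM in aorta with vehicle, and that of 10 adventitial fibroblast markers 1147 to 2304 CPM in liver and 6692 to 10210 CPM in aorta. The macrophage and Kupffer cell markers, 11 of them, summed to 465 to 1142 CPM in liver and 164 to 244 CPM in aorta. Which of these cells carried the aortic reads was not tested.

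The question the study put was whether 4 h of E2 changed expression. None of the 10 genes changed with E2 in liver or in aorta at an adjusted p under 0.05, and neither did any other gene, so that 0% of genes were called in either tissue by edgeR's quasi-likelihood test, Benjamini-Hochberg adjusted (11726 genes in liver and 13698 in aorta). At an unadjusted p under 0.05 there were 502 genes in liver and 495 in aorta, none of them among the 10. DESeq2 called 0 genes in liver and 24 in aorta, again none of the 10, and in aorta a fit with the suffix as a replicate block called 12 genes, none of the 10. In liver 8 of the 10 log2 fold changes, E2 over vehicle, were positive and 2 negative, with a median of 0.19 against −0.01 over all genes. This lean was not particular to the 10. Positive values were also had by 10 of 12 hepatocyte markers (median 0.16) and 10 of 11 negative acute phase genes (median 0.24). Of 22 other positive acute phase genes 19 had positive values (median 0.19), while all 11 macrophage and Kupffer cell markers had negative ones (median −0.41).

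The largest of these values in liver was that of Orm3, 0.75 ± 0.58 (SE), followed by Saa2 with 0.48 ± 0.37, Saa1 with 0.41 ± 0.32 and Hp with 0.31 ± 0.30. Hpx had 0.20 ± 0.27, Saa3 0.17 ± 0.29, Orm1 0.12 ± 0.28, Orm2 0.04 ± 0.62, Crp −0.05 ± 0.25 and Lcn2 −0.21 ± 0.38. Adjusted p-values of the edgeR quasi-likelihood test lay between 0.939 and 0.997. For every gene the E2 and vehicle libraries of liver overlapped.

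In aorta 7 genes had enough counts to be tested, since Saa1, Saa2 and Crp fell under the filter on low counts. Of these, 2 had positive and 5 negative log2 fold changes, and each had an adjusted p of 1 by edgeR's quasi-likelihood test. Saa3 had 0.91 ± 0.62, with E2 values of 9.05 and 3.56 CPM against vehicle values of 1.08 and 2.27 CPM in the n libraries, and no separation in the o libraries, in which E2 gave 3.93 and 0.770 CPM and vehicle 2.55 and 1.89 CPM. Orm2 had −1.16 ± 0.67 on 3 to 9 counts per library with E2 and 4 to 16 with vehicle. Orm3 had −0.61 ± 0.45, Lcn2 −0.52 ± 0.56, Hpx −0.44 ± 0.39, Hp −0.26 ± 0.16 and Orm1 0.08 ± 0.27. Of the 7 hepatocyte markers tested in aorta, 6 had negative and 1 a positive log2 fold change with E2, none of them called. Alb had −0.88 ± 0.19, and Ttr, another liver-made plasma protein, −1.41 ± 0.26 (edgeR's quasi-likelihood test, adjusted p = 0.731 and 0.517). The part of hepatocyte RNA in the Hpx values was not tested.

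**Figure D3:**
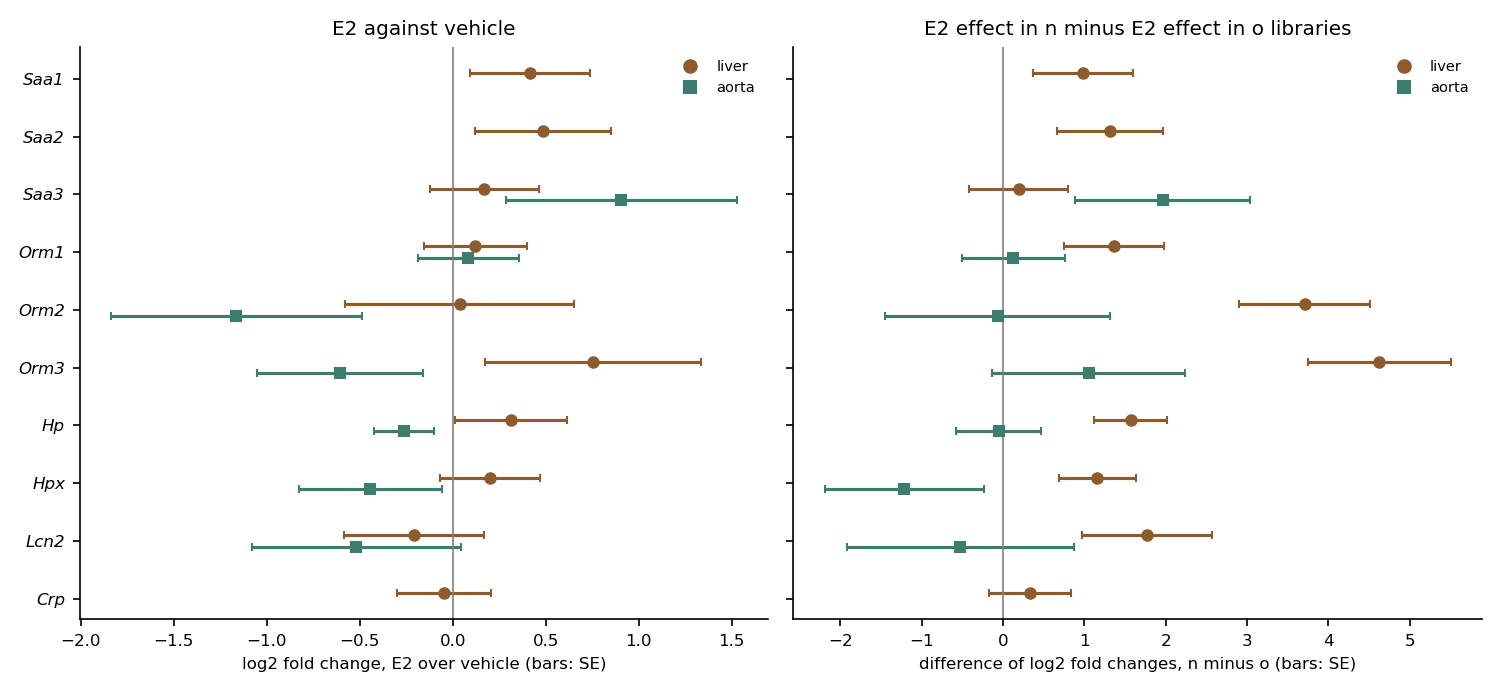
Left, log2 fold change of each gene, E2 over vehicle, in liver (brown circles) and aorta (green squares). Right, the E2 log2 fold change in n libraries minus that in o libraries. Bars are standard errors and genes without a point were not tested. On the left all values lie within 1.2 of 0, and on the right all 10 liver values are above 0, with Orm2 and Orm3 the farthest.

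The difference between the E2 effects of liver and aorta was tested over all 16 libraries. By edgeR's quasi-likelihood test, Benjamini-Hochberg adjusted 0% of 14190 genes were called, with 761 at an unadjusted p under 0.05, none of them among the 10, and DESeq2 called 10 genes, none of the 10. The difference, liver minus aorta, was positive for 9 genes and negative for Saa3 (−0.78 ± 0.67). It was largest for Saa1 (1.24 ± 0.96) and Orm3 (1.22 ± 0.87), while Crp had 0.96 ± 0.52. The same difference was positive for 11 of 12 hepatocyte markers (median 0.86) and 11 of 11 negative acute phase genes (median 1.1). It was positive for 18 and negative for 4 of the 22 other positive acute phase genes (median 0.38). By edgeR's quasi-likelihood test the adjusted p of the 10 ran from 0.875 to 1.

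The other genes of the pathway were tested in the same fits. Over 13 further lists, with 156 genes in the table, none passed the threshold for E2 in liver or in aorta (edgeR's quasi-likelihood test, Benjamini-Hochberg adjusted). The lowest adjusted p in aorta was that of Pgr, the progesterone receptor and an estrogen target, at 0.0898 with a log2 fold change of 1.97 ± 0.23. In liver Mt1, a metallothionein of the acute phase response, had 0.64 ± 0.26 and Hnf4a −0.58 ± 0.23, both with an adjusted p of 0.939 by the same test. In aorta the cytokine Il6 had −0.78 ± 0.19 and its receptor Il6ra 0.92 ± 0.22, both with an adjusted p of 0.925. Il6 had 784 and 606 CPM (n) and 92.9 and 58.8 CPM (o) in aorta with E2, against 1076 and 866 CPM (n) and 186 and 127 CPM (o) with vehicle, so that E2 lay below vehicle within each letter. Socs3, the feedback inhibitor that interleukin 6 induces, had 214 and 209 CPM (n) and 6.05 and 6.03 CPM (o) in aorta with E2, against 219 and 144 CPM (n) and 8.68 and 6.31 CPM (o) with vehicle.

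Within liver, the E2 difference was also compared between the letters. The E2 log2 fold change in n libraries minus that in o libraries was positive for all 10 genes, with a median of 1.34 against −0.07 over all genes. By edgeR's quasi-likelihood test, Benjamini-Hochberg adjusted none was called and 0% of 11726 genes were, the adjusted p of the 10 running from 0.577 to 0.949. At an unadjusted p under 0.05 there were 6 of the 10, and 965 genes in all. DESeq2 was not run on this comparison. With the suffix as a replicate block 2 genes were called, 1 of them Orm2 (3.80, adjusted p = 0.0276 by edgeR's quasi-likelihood test).

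Orm3 had the largest such difference, 4.63 ± 0.88 on the log2 scale, and Orm2 the next, 3.71 ± 0.81. In the n libraries both E2 values lay above both vehicle values for each of them, and in the o libraries both E2 values lay below both vehicle values. The remaining genes with an unadjusted p under 0.05 were Lcn2 (1.78 ± 0.80), Hp (1.57 ± 0.45), Orm1 (1.37 ± 0.62) and Hpx (1.16 ± 0.47). Saa2 had 1.32 ± 0.65, Saa1 0.99 ± 0.61, Crp 0.33 ± 0.50 and Saa3 0.19 ± 0.61. Without overlap between groups, E2 was above vehicle in the n libraries for 7 genes (Saa1, Saa2, Orm1, Orm2, Orm3, Hp and Hpx), where 24.3% of all genes tested did the same, and below it for none, where 20.9% of all genes were. In the o libraries E2 was below vehicle without overlap for 3 (Orm2, Orm3 and Crp), where 13.1% of all genes were, and above it for none, where 12.6% were. Each of these groups holds only 2 libraries. The TMM factors behind these CPM were 0.708 and 0.760 in the n libraries of liver with E2, against 0.988 and 1.027 with vehicle. In the o libraries of liver they were 0.711 and 0.838 with E2, against 0.720 and 0.753 with vehicle. A lower factor gives a higher CPM for every gene. Reads in genes made up 51.6% and 39.9% in the n libraries with E2, against 37.5% and 38.8% with vehicle. The part of these library differences in the E2 values was not tested.

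Most of the other hepatocyte transcripts listed had positive values too, none of them past the threshold. In the same comparison, n minus o, 11 of 11 negative acute phase genes had positive values, with a median of 0.99, as did 10 of 12 hepatocyte markers, with a median of 0.85, and 18 of 22 other positive acute phase genes, with a median of 0.70. Fetub, a fetuin, had 1.29 ± 0.37 and Serpina1b, an alpha-1-antitrypsin, 1.30 ± 0.38, each with an adjusted p of 0.577 by edgeR's quasi-likelihood test. All 8 adventitial fibroblast markers, 7 smooth muscle markers and 5 neutrophil markers tested had negative values, with medians of −1.15, −0.54 and −1.99. Of 11 macrophage and Kupffer cell markers 4 had positive and 7 negative values, with a median of −0.15, and of 4 adipocyte markers 3 had positive values and 1 a negative one, with a median of 0.40. Alb stood at 115800 and 95720 CPM (n) and 45930 and 45310 CPM (o) in liver with E2, against 81200 and 65080 CPM (n) and 48020 and 74750 CPM (o) with vehicle. The CPM of Alb carry the TMM factors of the liver libraries given above as well. The part of the hepatocyte share in the values of the 10 genes was not tested. In aorta the same comparison called 0% of 13698 genes, with 99 at an unadjusted p under 0.05 by edgeR's quasi-likelihood test, none of them among the 10. Of the 7 genes tested there, 3 had positive and 4 negative values, and Saa3 had the largest, 1.96 ± 1.07 (unadjusted p = 0.096).

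The libraries were then compared by letter, over E2 and vehicle together. In liver 8 of the 10 genes were called higher and 1 lower in n than in o libraries, where 33.7% of all genes were called higher and 35.7% lower, at an adjusted p under 0.05 and a more than 2-fold difference by edgeR's quasi-likelihood test, Benjamini-Hochberg adjusted. The median log2 fold change of the 10 was 2.45, against −0.08 over all genes. Orm3 had 5.62 ± 0.63, a 49.1-fold difference that rests on 0 to 23 counts in the o libraries, and Hpx 4.58 ± 0.36, a 23.97-fold difference. Lcn2 had 3.21 ± 0.46, Hp 3.07 ± 0.35, Orm2 2.64 ± 0.65, Orm1 2.25 ± 0.37, Saa1 1.79 ± 0.33 and Saa2 1.22 ± 0.37. Without liver vehicle o2 the values were 7.41 for Orm3, 4.17 for Lcn2, 3.85 for Orm2 and 2.88 for Orm1. Orm3 had 4.88 without liver E2 o2 and 6.22 without liver vehicle n2. Orm2 had 3.31 without liver vehicle n1, 3.32 without liver vehicle n2 and 1.95 without liver E2 o1. The call for Saa2 was lost without liver E2 o1 or without liver E2 n2, where the value fell under the fold threshold to 0.98 and 0.95. Saa3 had 0.75 ± 0.31 and stayed under the fold threshold, and Crp was called lower with −2.13 ± 0.27.

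**Figure D4:**
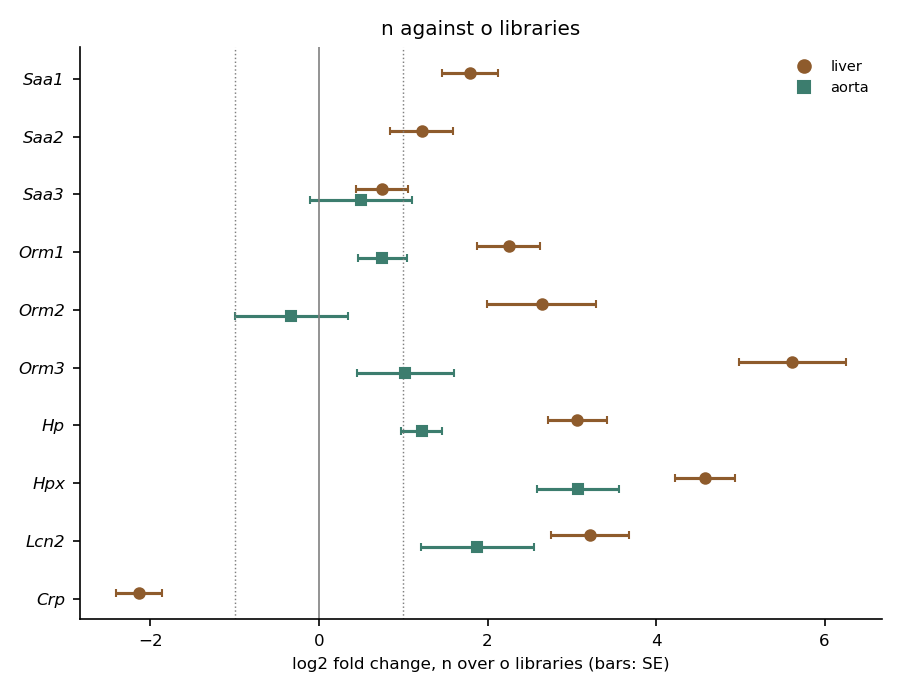
Log2 fold change of each gene, n over o libraries, in liver (brown circles) and aorta (green squares), with standard errors as bars and dotted lines at the fold threshold. Crp alone is below −1 in liver, Orm3 is the highest in liver with 5.62 and Hpx the highest in aorta with 3.07.

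In aorta 3 of the 7 genes tested were called higher in n than in o libraries and none lower, where 33% of all genes were called higher and 28.1% lower (edgeR's quasi-likelihood test, Benjamini-Hochberg adjusted). They were Hpx (3.07 ± 0.48), Lcn2 (1.88 ± 0.67) and Hp (1.22 ± 0.24). The Hpx value rests on 3 to 6 counts in each o library of aorta. The Lcn2 call was lost without aorta vehicle o2, aorta vehicle n2, aorta E2 o2 or aorta E2 n2, with adjusted p-values of 0.0774 to 0.129 by the same test, and without aorta vehicle n2 the value was 1.21. Orm3 had 1.03 ± 0.57 and was called without aorta vehicle o2 (1.92, adjusted p = 0.0208). Orm1 had 0.75 ± 0.29, Saa3 0.50 ± 0.60 and Orm2 −0.33 ± 0.67.

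Genes of the other lists were compared by letter too. In liver Cebpb was 6.76 ± 0.37 higher in n libraries on the log2 scale and Cebpd 3.63 ± 0.31, and in aorta 9.58 ± 0.39 and 5.48 ± 0.24, all called by edgeR's quasi-likelihood test (adjusted p from 1.28e-10 to 8.19e-08). Cebpb had 223.5 and 177.5 CPM (n) and 2.59 and 0.708 CPM (o) in liver with E2, against 172 and 127 CPM (n) and 1.07 and 1.93 CPM (o) with vehicle. In aorta Cebpb had 222 and 251 CPM (n) and 0.303 and 0.385 CPM (o) with E2, against 189 and 250.4 CPM (n) and 0 and 0.243 CPM (o) with vehicle. Over all genes tested, 33.7% were called higher and 35.7% lower in n libraries of liver, and 33% higher and 28.1% lower in those of aorta. The counts for the lists below are to be read beside these shares. Of the 16 transcription factors and feedback inhibitors 7 were called higher and 6 lower in n libraries of liver, and of the 14 tested in aorta 9 higher and 4 lower. Among receptors and signal transducers 1 was called higher and 8 lower in liver, with Jak1 at −3.64 ± 0.33 and Il6st, the shared receptor subunit of the interleukin 6 family, at −3.64 ± 0.38, and 6 higher and 7 lower in aorta. Of 22 other positive acute phase genes 10 were called higher and 2 lower in liver, led by Lrg1 (6.22 ± 0.34), and 7 higher and 5 lower of 19 in aorta, with Lrg1 at 5.19 ± 0.49. Of 11 negative acute phase genes 7 were called higher and 1 lower in liver, and of 10 tested in aorta 3 were called higher and 3 lower, with Alb at −2.34 ± 0.45.

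The transcripts themselves differ in composition. Crp has 42.1% G and C over 1695 bases, the lowest of the 10, and the other 9 have between 48% and 56.2% over 555 to 1499 bases, with Hp at 56.2%. Whether composition or length bears on the difference between the letters was not tested.

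The pattern across libraries was compared with that of all other genes, as the Pearson correlation of log2(CPM + 1) after subtraction of the average for that tissue and letter, over the 8 libraries of a tissue. These 8 values share the library depth and, by construction, sum to 0 within a letter, so the correlations are a description only. In liver Saa1 was most like Cyp2b10, a drug-metabolizing cytochrome (r = 0.99), Hp most like Cyp2b13 (r = 0.99), Hpx most like Rdh11 (r = 0.99), Orm1 most like Fpgs (r = 0.99) and Orm2 most like Vnn3 (r = 0.99). Among the 10 themselves Hp and Hpx were the closest (r = 0.96), then Hpx and Lcn2 (r = 0.90), Orm1 and Orm2 (r = 0.90) and Saa1 and Saa2 (r = 0.89), and Crp was at most at 0.35 with any other of the 10. Genes outside the 10 were closer in each case. Among 11725 genes Hpx had rank 18 for Hp and rank 41 for Lcn2, Orm2 rank 223 for Orm1 and Saa2 rank 22 for Saa1. In aorta Hp was most like Rhod (r = 0.99) and Saa3 most like Fam181b (r = 0.97), and the closest pair of the 10 was Hp and Orm3 (r = 0.78). Orm3 had only rank 425 among 13697 genes for Hp.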

How the data were processed

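RNA was sequenced from cultured mouse liver and aorta, with 4 libraries in each of 4 groups. The authors deposited 1 table of estimated counts per gene, and every value in it is a whole number. Per the submitters' processing notes, Bowtie 0.12.5, HTSeq 0.4.5p7 and edgeR 3.4.2 were used with build mm9; no source used here gives the annotation, the strand setting or the handling of reads that match several genes. Without strand, reads of antisense or overlapping genes cannot be told apart, as for Crp, which overlaps Gm38051. Rows that name no gene (no feature, 48.05% to 75.22% of counted reads, and ambiguous, 0.0452% to 0.523%) were left out of library sizes and tests.

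Counts were normalized by TMM, filtered with filterByExpr (minimum count 10, minimum total 15) and tested by edgeR's quasi-likelihood test (edgeR 4.0.16, R 4.3.3), with Benjamini-Hochberg adjustment over all genes tested. The fits of E2 against vehicle, of liver against aorta and of liver minus aorta held a covariate with the levels o1, o2 and n. The fits of n against o held treatment instead. Those of the E2 effect in n minus o held letter, treatment and their interaction. The threshold was an adjusted p of 0.05, and for tissue and for n against o also an absolute log2 fold change over 1. Standard errors are the absolute log2 fold change over the square root of F. The test was checked on simulated counts. DESeq2 1.42.0, RLE normalization, no filter, no covariate, a replicate block, n or o alone, Rn45s left out and each library left out were the alternatives. Ratios to Alb and their alternatives were added after the data were seen, and were tested by exact permutation, also with exchange within a letter only (scipy 1.17.1, Python 3.11.15). Whether equal suffixes pair an E2 and a vehicle library was checked from their deviations within a letter. These correlated at 0.43 in n and 0.50 in o libraries of aorta, and at −0.05 in n and 0.25 in o libraries of liver. Both letters passed a limit of 0.1 in aorta and only o did in liver, and no label says that suffixes pair libraries. The 10 genes and the lists were chosen with earlier results of these data known. Genes of a list were named by adjusted p, up to 4 past the threshold, or the 2 with the lowest unadjusted p where none passed. The levels by library of Il6, Socs3 and Cebpb were chosen after their values were seen. Intervals cover counting error only.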

Additional observations from a re-analysis of the deposited data

Results flagged for a closer look

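Of 40 groups of 4 libraries, 4 held a library far from the other 3 by Dixon's test. Its chance rate of about 1 in 20 is for values of a single population. Each group mixed n and o libraries, which differ in level, so the flags cannot be set against that rate. Saa2 stood at 21.38 CPM in liver vehicle n2, against 9.34 to 10.97 CPM in the other liver vehicle libraries. Saa3 stood at 25.5 CPM in the same library, against 11.78 to 13.7 CPM. Orm1 stood at 15.37 CPM in aorta vehicle n2, against 6.30 to 7.41 CPM in the other aorta vehicle libraries. Crp stood at 4.256 CPM in aorta vehicle o1, against 0.157 to 0.777 CPM, and that library also had the most Alb in aorta. The n2 vehicle libraries of both tissues had the highest sums of neutrophil markers.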

How the results depend on the processing

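All 10 genes kept their liver call under every alternative run except Orm3 in the o libraries alone, and no alternative called any of them for E2 in either tissue. The signs of the E2 log2 fold changes in liver, none of them past the threshold, were less stable. DESeq2 gave −0.26 for Orm2 and −0.39 for Orm3, and without the batch covariate Lcn2 had 0.28. In the o libraries alone Saa1 had −0.10, Saa2 −0.22, Orm1 −0.52, Orm2 −2.31, Hp −0.45 and Hpx −0.36, and in the n libraries alone Lcn2 had 0.44 and Crp 0.091. With single libraries left out, the liver values ran from −0.0092 to 0.35 for Saa3, −0.12 to 0.47 for Orm1, −0.64 to 0.96 for Orm2, −0.00058 to 0.49 for Hpx, −0.64 to 0.34 for Lcn2 and −0.39 to 0.13 for Crp. In aorta they ran from −0.090 to 0.36 for Orm1 and −0.83 to 0.31 for Lcn2, and Saa3 had −0.34 in the o libraries alone.

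For liver minus aorta, leaving out 1 suffix gave −0.13 to 1.69 for Saa2, −0.61 to 0.36 for Orm1, −0.43 to 1.72 for Orm2 and −0.32 to 0.99 for Lcn2, and Orm1 had −0.00021 with no filter. For n over o in aorta, leaving out 1 library gave −0.098 to 0.83 for Saa3 and −1.16 to 0.082 for Orm2. The log2 ratio to Alb, liver over aorta, was −0.69 for Hpx in the n libraries alone and ran from −1.04 to 1.13 with single libraries left out, and that of Crp was 2.29 with the other hepatocyte markers in place of Alb.

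In liver the suffix numbers were not shown to pair the n libraries. With the suffix as a replicate block, Orm2 had −0.00097 for E2 in liver, Orm1 −0.050 for liver minus aorta and Orm2 0.37 for n minus o in aorta. For n minus o in liver the block called 1 of the 10 genes, Orm2 (3.80, adjusted p = 0.0276 by edgeR), and 2 genes in all, against 0.

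Counts over all genes for E2 in liver were 0, against 6 with no filter, 5 in o alone, 1 in n alone and 1 without liver vehicle o2 or without liver E2 o2. In aorta they were 0, against 24 with DESeq2, 12 with the replicate block, 33 in o alone and 17 without aorta vehicle n2. For liver minus aorta they were 0, against 10 with DESeq2, 1 with the block and 1 without n2. The cause of these changes was not tested. Low counts limit what can be said of Saa1, Saa2, Crp and Orm2 in aorta, of Hpx in the o libraries of aorta and of Orm3 in the o libraries of both tissues.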
